A study of Mus musculus with 30 samples.

Results

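The FOS and JUN families supply the subunits of activator protein 1 (AP-1), and 6 of their genes, Fos, Fosb, Fosl2, Jun, Junb and Jund, were followed in ribosome-associated RNA from the nucleus accumbens of female mice. The members were named by symbol and found by Ensembl identifier among the 55335 genes of the count table, and all 6 were among the 19368 genes that passed the filter on low counts. The mice were D1-Cre-RT, in which a tagged ribosomal protein (RiboTag, RT) is made in cells with Cre under D1 receptor gene control, or A2A-Cre-RT, in which Cre follows the A2A receptor gene that marks the other class of medium spiny neuron, called D2 here. Mice that had gone through chronic witness defeat stress (CWDS) were sorted by social interaction into Resilient and Susceptible, and were compared with Control mice of the same genotype. There were 5 libraries in each of 6 groups, each from 4 pooled mice with similar interaction scores, with tissue taken 24 h after the interaction test. The labels used here give neither age nor strain background, the D1 and D2 libraries come from separate mouse lines, and the punches held every cell type of the region.

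AP-1 is a dimer. JUN proteins pair with each other or with FOS proteins through a leucine zipper, whereas FOS proteins need a JUN partner, and the dimer binds the AP-1 site TGANTCA or the related cAMP response element (CRE) TGACGTCA. Fos, Fosb and Junb are immediate early genes whose transcripts rise quickly and briefly when a neuron is active, and FOS is widely used as a mark of that activity. Fosb also gives a truncated protein, deltaFosB, which is stable and builds up in the nucleus accumbens of rodents after repeated drug exposure or stress.

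Promoter sequence is shown for the pair of genes on which the results turn, Fos, the classical activity marker, and Jun, the member that separated the classes of neuron. Each run is the 250 bases before the RefSeq start of the gene (GRCm38.p6), 5′ to 3′ on the gene's strand, and capitals mark matches to the motifs searched. The Fos window is on the plus strand at chr12:85473640-85473889, and the Jun window is on the minus strand at chr4:95052223-95052472.
Fos: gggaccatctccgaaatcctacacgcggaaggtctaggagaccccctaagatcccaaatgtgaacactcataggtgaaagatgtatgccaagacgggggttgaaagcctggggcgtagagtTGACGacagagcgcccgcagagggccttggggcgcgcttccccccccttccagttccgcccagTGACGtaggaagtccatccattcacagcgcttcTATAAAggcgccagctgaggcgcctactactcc
Jun: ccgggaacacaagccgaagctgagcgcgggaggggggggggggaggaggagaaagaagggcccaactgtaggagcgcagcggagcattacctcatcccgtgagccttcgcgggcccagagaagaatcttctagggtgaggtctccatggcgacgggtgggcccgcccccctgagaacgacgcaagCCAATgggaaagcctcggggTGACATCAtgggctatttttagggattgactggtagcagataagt
The motifs were the CRE TGACGTCA, its core TGACG, the AP-1 site TGANTCA, the Jun-type AP-1 site TGACATCA, the boxes CCAAT and TATAAA, and the CArG box bound by serum response factor, each on both strands. The core is part of the full CRE, and the other motifs do not contain each other. In Fos, 2 CRE cores lie 129 to 125 and 66 to 62 bases before the start and a TATAAA lies 33 to 28 bases before it. In Jun, the Jun-type site TGACATCA lies 45 to 38 bases before the start and a CCAAT box 65 to 61 bases before it. Among 32851 windows of the same length, 17.8% held a CRE core, 12.4% a TATAAA, 2.93% a Jun-type site, 33.8% a CCAAT, 1.55% a full CRE, 6.75% an AP-1 site and 1.47% a CArG box. A CRE core was also found 106 to 102 bases before the start of Junb and 60 to 56 bases before that of Fosb, and Junb held a CCAAT 36 to 32 bases before its start. These matches describe the letters of the windows and are not binding data.

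The members lie on 5 chromosomes (GRCm38, gene spans from GENCODE M21). Fos (ENSMUSG00000021250) is at chr12:85473890-85477273 on the plus strand, Fosb (ENSMUSG00000003545) at chr7:19302696-19310051 on the minus strand and Fosl2 (ENSMUSG00000029135) at chr5:32135801-32157842 on the plus strand. Jun (ENSMUSG00000052684) is a single exon of 3189 bases at chr4:95049034-95052222 on the minus strand, and Jund (ENSMUSG00000071076) a single exon of 1668 bases at chr8:70698949-70700616 on the plus strand. Junb (ENSMUSG00000052837) is on the same chromosome as Jund, at chr8:84974484-84978718 on the minus strand.

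A segment of Fosb is printed because its presence decides which FOSB protein a transcript encodes. In GENCODE M21 the full-length transcript holds the 140 bases at chr7:19305007-19305146 (GRCm38, minus strand), in capitals in the first sequence with 10 bases on each side. The shorter transcript skips them, and in the second sequence, 30 bases across its junction, the capitals mark a stop codon that begins at the first base after the junction.
Fosb with the segment: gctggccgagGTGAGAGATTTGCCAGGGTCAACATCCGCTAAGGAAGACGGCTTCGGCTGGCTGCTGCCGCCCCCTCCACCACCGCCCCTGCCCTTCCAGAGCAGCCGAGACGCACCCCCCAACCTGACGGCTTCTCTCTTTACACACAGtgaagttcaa
Fosb without the segment: ggccaggcccgctggccgagTGAagttcaa
The deposited counts are totals for the gene, so they do not separate the forms, and every Fosb value below is the sum of them.

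Depth was high enough to count every member in every library. Gene counts per library ran from 28996168 to 65882152, and the lowest count of any member was 51 reads, for Jund. Drd1 was 377 to 616 CPM in the 15 D1 libraries and 50.3 to 414 in the 15 D2 libraries. CPM are a gene's counts scaled to the size of the library, after TMM. Adora2a was 105 to 314 against 491 to 1457, and Tac1, a D1 marker, 667 to 988 against 150 to 792. The classes thus differed in their defining markers and overlapped in Drd1 and Tac1. The D1 libraries also held D2 markers, whose sum over 5 genes was 1120 to 2771 CPM. D2 Resilient replicate 5 had the lowest summed D2 markers of its class (4867 CPM over 5 markers, with the other 14 at 7287 to 12799). Its 6 D1 markers summed to 1715 CPM, within the 1604 to 2407 CPM of the D1 libraries, and D2 Control replicate 5 had 1127 CPM, whereas the other 13 D2 libraries had 254 to 653 CPM. Of the libraries that stood apart, D2 Susceptible replicates 1 and 2 had the fewest genes detected (15822 and 16525, against 19440 to 22375 elsewhere) and summed epidermal markers of 387 and 601 CPM against 32.9 to 55.3, and in D1 Susceptible replicate 1 the single feature Gm42418 took 54.9% of the counts. Calls that rest on D2 Susceptible replicates 1 and 2 are given with and without them. In bulk libraries such as these, fewer cells of a type and less RNA per cell cannot be told apart.

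Levels between genes were compared per kilobase (kb) of merged exon. Jun had the highest mean over the 30 libraries, 65.4 CPM per kb, higher than 96.2% of 19350 tested genes. Junb followed at 33.4 CPM per kb (91.8th percentile), and the other 4 members lay between 2.22 and 7.96 CPM per kb. Jund came after Jun and Junb by mean (7.96 CPM per kb) but last by median (2.09 CPM per kb), because a pair of libraries lay far above the rest. The Jund gene model counted here starts at base 70698949, whereas RefSeq places the start upstream, at base 70697739. Of its 1668 bases, 877 are shared with Gm11175 on the opposite strand. Whether reads of Jund were missed in counting was not tested, so its rank carries that uncertainty. By median Fosl2 (5.04) and Fos (4.64 CPM per kb) were close, with overlapping ranges over libraries, and Fosb was at 2.23.

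The order of the JUN family differed between the classes. Junb exceeded Jun per kb in 15 of 15 D1 libraries and in 0 of 15 D2 libraries. In D1, Junb had a median of 30.8 and Jun of 18.1 CPM per kb. In D2, Junb had a median of 32.5 and Jun of 122.6 CPM per kb, so Junb was at a like level in both and Jun was not.

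**Figure D1:**
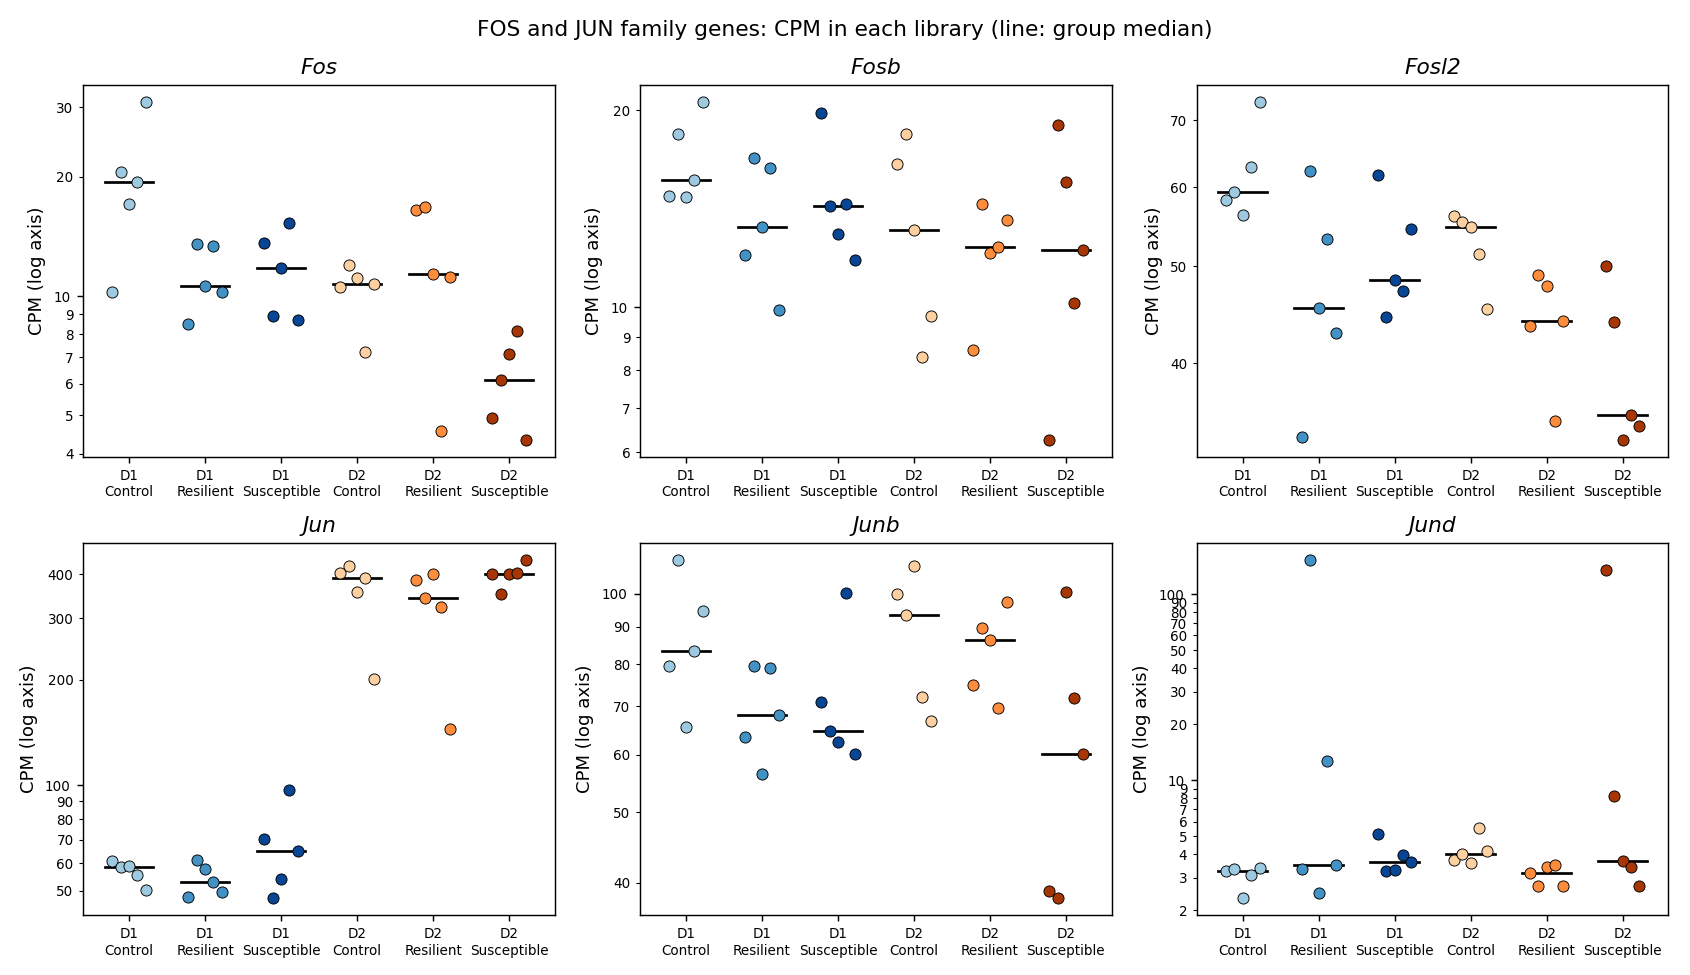
CPM on a log axis for each of the 6 members, with 1 point per library, 5 libraries in each of 6 groups and a line at the group median. Jun lies between 47.7 and 97.3 in the 15 D1 libraries and between 145 and 439.5 in the 15 D2 libraries, and Jund reaches 152 and 135 CPM in 1 library each of D1 Resilient and D2 Susceptible.

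Jun encodes the founding JUN subunit, which can bind DNA with itself or with any FOS protein. In D1 Control libraries it stood at 60.7, 58.5, 58.8, 55.6 and 50.2 CPM in replicates 1 to 5, and in D2 Control at 402, 424, 356, 391 and 201 CPM. The Resilient libraries gave 48.1, 61.2, 57.8, 52.9 and 49.6 CPM in D1 and 386, 343, 401, 323 and 145 CPM in D2. The Susceptible libraries gave 70.1, 47.7, 54.0, 97.3 and 65.0 CPM in D1 and 399.8, 351, 400.5, 404 and 439.5 CPM in D2. No D1 library reached any D2 library, and the lowest D2 values were replicate 5 of Control and of Resilient.

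Jun was thus about 6 times higher in D2 in each condition: 6.25-fold in Control (95% interval 4.63 to 8.43), 5.93-fold in Resilient (4.40 to 7.99) and 5.97-fold in Susceptible (4.43 to 8.06). As log2 of D1 minus D2 these are -2.64 (SE 0.211, edgeR adjusted p 2.23e-09), -2.57 (SE 0.211, edgeR adjusted p 3.19e-09) and -2.58 (SE 0.211, edgeR adjusted p 5.96e-09). By unadjusted p Jun had rank 3, 4 and 2 among the 19368 genes. In the 16, 16 and 18 alternative fits of these comparisons Jun was called each time, with log2 differences of -2.88 to -2.45 and an adjusted p of at most 0.00019.

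Of the 6 members, edgeR's quasi-likelihood test called 2 between the classes in Control (Fos higher in D1, Jun higher in D2), where 8.3% of all genes were called. It called 2 in Resilient (Jun, and Jund higher in D1; 6.65% of all genes) and 4 in Susceptible (Fos and Fosl2 higher in D1, Jun and Jund higher in D2; 23.9% of all genes). Without overlap between the 5 and 5 libraries there were 3 members in Control (Fosl2, Jun and Jund; 11.7% of all genes), 1 in Resilient (Jun; 9.7%) and 2 in Susceptible (Fos and Jun; 8.92%). Jun was called and separate in all 3 conditions. Without D2 Susceptible replicates 1 and 2 the count in Susceptible was 2, Fosl2 and Jun, and the share of all genes called fell as well, to 10.4%.

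**Figure D2:**
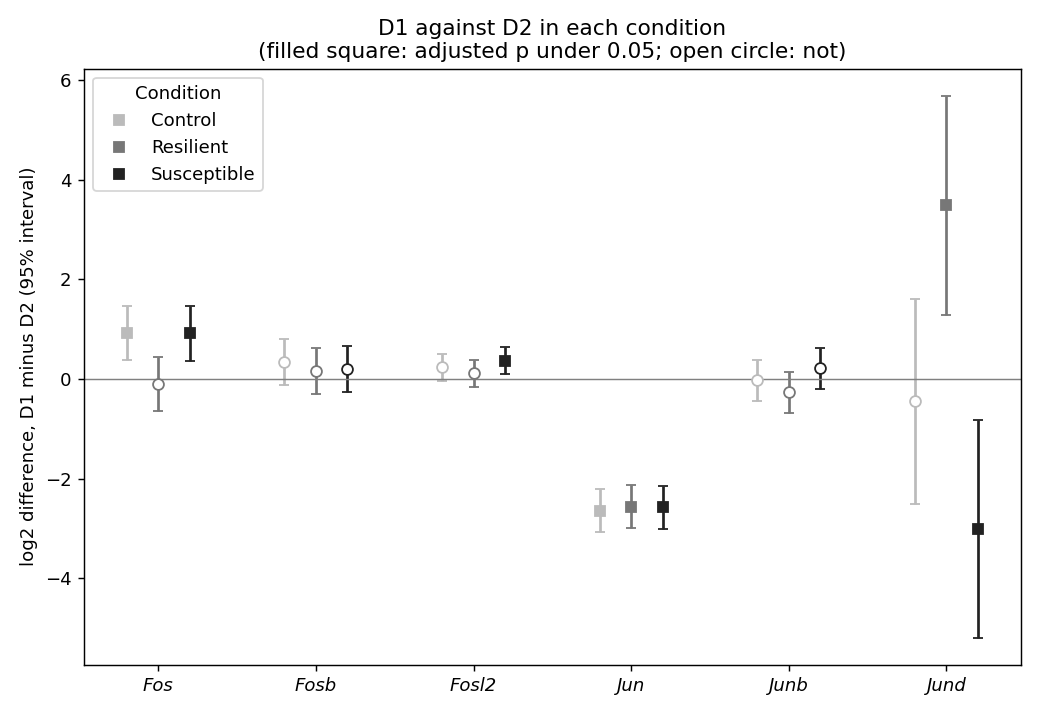
Log2 difference between D1 and D2 (D1 minus D2, with 95% intervals from edgeR) for the 6 members in Control, Resilient and Susceptible libraries, 5 per group; filled squares have an adjusted p under 0.05. Jun lies near -2.6 in all 3 conditions, and the Jund values, 3.49 in Resilient and -3.01 in Susceptible, have the widest intervals.

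Markers of vessel cells were higher in D2, as Jun was. All 7 endothelial markers were counted in every group, none at 0, and their sum was 14.0 to 39.5 CPM in the D1 libraries and 66.0 to 334 CPM in the D2 libraries. Pecam1, an adhesion protein of endothelial cells, was 1.95 ± 0.518 CPM (SD, n = 5) in D1 Control, against 17.2 ± 4.65 CPM for D2 Control. The sum of 6 mural cell markers was likewise 7.98 to 34.0 CPM in D1 and 90.8 to 256 CPM in D2. The sum of 8 interneuron markers also separated the classes, in the other direction, at 308 to 501 CPM in D1 and 75.5 to 300.6 CPM in D2. Glial marker sums overlapped between the classes but had higher group medians in D2. For astrocytes the medians were 344 to 407 CPM in D1 and 617 to 716 CPM in D2. For oligodendrocytes they were 486 to 588 and 724 to 1055 CPM, and for microglia 26.8 to 34.7 and 42.0 to 45.6 CPM. The part of any of these cells in the differences of Jun, Fos and Nr4a2 between the classes was not tested.

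The relation of Jun to these markers within each class was tested over libraries and did not pass after adjustment. With group means removed, the 3 genes whose log2 CPM was most like that of Jun over 30 libraries were Pecam1 (Pearson r 0.852), P2ry1, a purinergic receptor (0.816), and Adora2a, the A2A receptor whose gene drives Cre in the D2 line (0.781). Within D1, Jun and the endothelial sum had Pearson r 0.698 (permutation p 0.0216) and Spearman rho 0.689 (permutation p 0.0178) over 15 libraries, permuted within groups, and r 0.714 without the 2 libraries farthest from the median of the endothelial sum. Within D2 they had r 0.795 (permutation p 0.0407) and rho 0.596 (permutation p 0.0352), and r 0.612 without the 2 farthest. Adjusted by Benjamini-Hochberg over the 12 such tests of members and classes, the p-values were 0.0964 and 0.122 for r and 0.107 and 0.141 for rho, so none passed. An index of class markers (the mean log2 CPM of 5 D2 markers less the mean of 6 D1 markers) gave r 0.683 in D1 and 0.833 in D2 with Jun (rho 0.718 and 0.561; permutation p for r 0.0235 and 0.0265, for rho 0.0147 and 0.0378; adjusted 0.159 for both r, and 0.176 and 0.227 for rho). Without the 2 libraries farthest in the index, r was 0.584 and 0.269, so in D2 the relation rested on those libraries. D2 Resilient replicate 5, the lowest D2 library for Jun (145 CPM), was also lowest for the endothelial sum (66.0 CPM) and for the D2 markers, and the 2 D2 libraries lowest for Jun were the 2 highest for D1 markers.

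**Figure D3:**
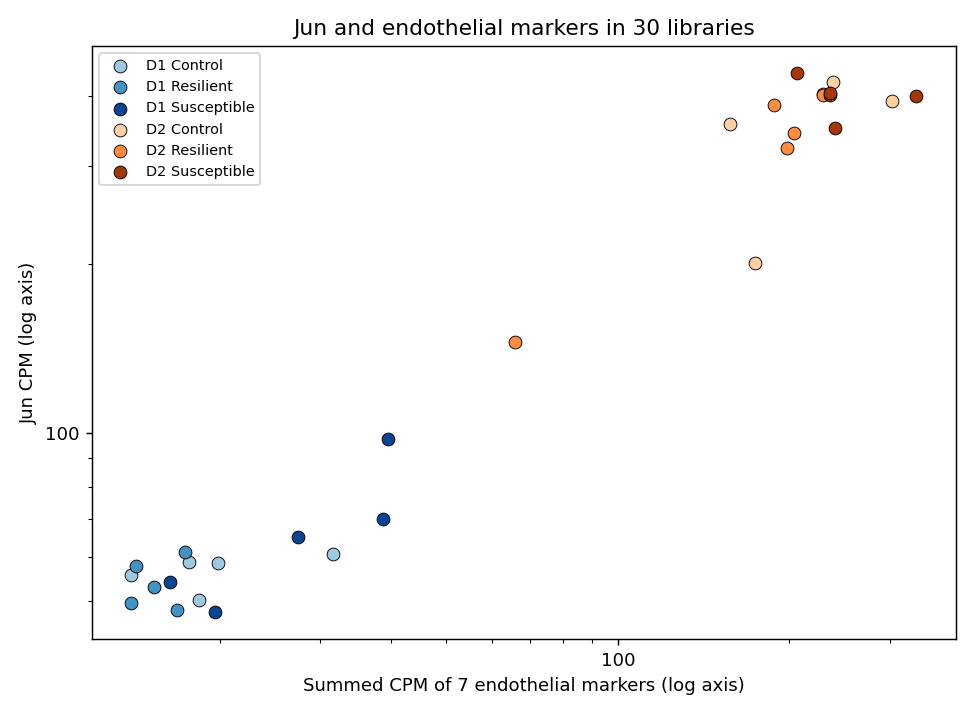
Jun CPM against the summed CPM of 7 endothelial markers, both on log axes, with 1 point per library coloured by group (30 libraries). The 15 D1 libraries lie at or below 39.5 CPM of markers and 97.3 CPM of Jun, D2 Resilient replicate 5 lies alone at 66.0 and 145, and the other D2 libraries have higher values of both.

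Genes near Jun were examined for a class difference in Control libraries. Within 1000000 bases on either side, 13 neighbouring genes were tested and 2 were called. Tek, an endothelial receptor kinase 174058 bases away and itself one of the 7 endothelial markers, was higher in D2 (D1 minus D2 of -2.84 in log2, SE 0.408, adjusted p by edgeR 2.01e-05). Plaa, a ubiquitin-binding protein 445790 bases away, was slightly higher in D1 (0.27, SE 0.0852, edgeR adjusted p 0.0422). Junos, an antisense transcript that shares 232 exon bases with Jun, had 0 to 33 counts per library against 691 to 29888 for Jun. The library kit does not mark strand, so reads in the shared bases cannot be assigned to either strand from these counts. How the counting treated strand is not given.

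Fos, at a mean above 64.2% of tested genes per kb, had its 4 highest values in D1 Control libraries. D1 Control libraries stood at 10.2, 20.6, 17.1, 19.5 and 31.0 CPM in replicates 1 to 5, D1 Resilient at 8.51, 13.5, 10.6, 13.4 and 10.2 CPM, and D1 Susceptible at 13.6, 8.93, 11.8, 15.3 and 8.71 CPM. In D2 they were 10.6, 12, 11.1, 7.24 and 10.7 CPM in Control, 16.5, 16.8, 11.4, 4.56 and 11.2 CPM in Resilient, and 4.92, 6.14, 7.14, 8.15 and 4.34 CPM in Susceptible. In D1, 4 of the 5 Control libraries exceeded every stressed library, and replicate 1 lay among the stressed ones. In D2, 4 of the 5 Susceptible libraries were below every Control library, and replicate 4 of Resilient lay among the Susceptible ones.

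In Control, Fos was 19.7 ± 7.47 CPM (SD, n = 5) in D1 libraries, and 10.3 ± 1.81 CPM was the mean for D2, so that D1 exceeded D2 by 0.93 on the log2 scale (SE 0.267, adjusted p by edgeR 0.0251). In Susceptible it was 11.7 ± 2.89 against 6.14 ± 1.56 CPM, and D1 exceeded D2 by 0.92 (SE 0.270, adjusted p by edgeR 0.0136). In Resilient it was 11.2 ± 2.16 against 12.1 ± 4.99 CPM, which as D1 minus D2 is -0.10 in log2 with a 95% interval of -0.64 to 0.44 (edgeR adjusted p 0.967). Whether the class difference changed with condition was tested directly: the D1 change minus the D2 change from Control to Resilient was -1.03 (95% interval -1.80 to -0.26, unadjusted p 0.0101, edgeR adjusted p 0.850), and from Resilient to Susceptible it was 1.02 (0.25 to 1.79, unadjusted p 0.0111, edgeR adjusted p 0.290). Neither passed. In Control the call was lost without D1 Control replicate 5 (0.72, edgeR adjusted p 0.118) or D2 Control replicate 4 (0.84, edgeR adjusted p 0.0841). In Susceptible the difference was 0.85 without D2 Susceptible replicates 1 and 2 together (edgeR adjusted p 0.118), and no longer called by edgeR, while DESeq2 called it (0.83, adjusted p 0.0481). With all libraries kept, DESeq2 called Fos in Susceptible and limma voom did not.

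Stress comparisons within each class asked whether family members differed between Control, Resilient and Susceptible mice. By edgeR at an adjusted p of 0.05, 0 of 6 members were called in any of the 6 comparisons. The share of all genes called was 0% for D1 Susceptible against Control, 0% for D1 Resilient against Control and 0% for D1 Susceptible against Resilient. In D2 it was 0.00516% for Susceptible against Control, 0% for Resilient against Control and 0.0516% for Susceptible against Resilient. At an unadjusted p under 0.05 the members numbered 2, 3 and 1 in D1 and 4, 0 and 3 in D2, in the same order, while 2.4%, 2.6%, 3.49%, 15.7%, 4.2% and 19.1% of all genes reached it. Jund, at 152 CPM in D1 Resilient replicate 2 and 135 CPM in D2 Susceptible replicate 1, was in each count that included either library. It was the only member in D1 Susceptible against Resilient. Without D2 Susceptible replicates 1 and 2, the D2 Susceptible counts were 1 against Control and 2 against Resilient. The DESeq2 Wald test called 2 members (Fos and Jund) in D2 Susceptible against Resilient, where it called 1077 of all genes. It called 0 members in the other 5 comparisons. Without D2 Susceptible replicates 1 and 2, DESeq2 called 0 members against Resilient (0.103% of all genes) and 1, Fosl2, against Control (0.068%). With all libraries, limma voom with sample quality weights called 2 (Fos and Fosl2) in D1 Resilient against Control, where it called 173 of 19368 genes. It called 0 members in the others. The median log2 change of the 6 members was -0.24, -0.31 and 0.07 in D1 and -0.24, -0.13 and -0.05 in D2, beside -0.01, -0.01 and -0.01 and -0.03, -0.01 and -0.03 over all genes. Since each library is a pool, these p-values measure the spread between pools and not between mice.

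Members did not overlap between 5 and 5 libraries in 0 of 6 cases for D1 Susceptible against Control (0.888% of all genes), for D1 Resilient against Control (1.54%) and for D1 Susceptible against Resilient (1.12%). The count was also 0 for D2 Susceptible against Control (1.31%) and D2 Susceptible against Resilient (1.5%). It was 1 for D2 Resilient against Control (1.31%), where the member was Jund, at 2.69 to 3.53 CPM in Resilient and 3.60 to 5.54 in Control. Jund differed there by -0.44 in log2 (SE 0.995, adjusted p by edgeR 1.00).

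The Fos values against Control were log2 changes of -0.76 in D1 Susceptible (95% interval -1.30 to -0.21, unadjusted p 0.00812) and -0.81 in D1 Resilient (-1.35 to -0.26, unadjusted p 0.00501), both with an edgeR adjusted p of 1. These comparisons share the D1 Control libraries. In D2 the log2 change was -0.75 in Susceptible (-1.30 to -0.20, edgeR adjusted p 0.195) and 0.23 in Resilient (-0.32 to 0.77, edgeR adjusted p 1.00). D2 Susceptible against Resilient gave the smallest adjusted p of any member in a stress comparison, for Fos at -0.97 (SE 0.269, edgeR adjusted p 0.0736), which DESeq2 called (-0.96, adjusted p 0.0187). It was also called by edgeR without D2 Susceptible replicate 3 (-1.04, adjusted p 0.0260) or replicate 4 (-1.10, adjusted p 0.0443). Without D2 Susceptible replicates 1 and 2 it was -0.89 by edgeR (adjusted p 0.785). DESeq2 then gave -0.88 (adjusted p 0.357), so the DESeq2 call was lost. With all libraries kept, voom gave -1.08 (adjusted p 0.574).

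Fosl2 encodes FRA-2, a FOS-related subunit, and its libraries were at 56.3 to 73.0 CPM in D1 Control (median 59.3). In D1 Resilient they were 33.7, 62.3, 45.4, 53.3 and 42.9 CPM, and in D1 Susceptible 61.7, 44.5, 48.4, 47.2 and 54.4 CPM, so 4 of 5 libraries of each stressed group lay below the lowest Control library. In D2 the Control libraries were at 45.4 to 56.1 CPM, Resilient at 35.0 to 49.1 and Susceptible at 50.1, 44.0, 33.6, 35.5 and 34.6. The D2 groups overlapped, with 4 of 5 Susceptible libraries under every Control library.

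The log2 change of Fosl2 from Control was -0.28 in D1 Susceptible, -0.38 in D1 Resilient, -0.41 in D2 Susceptible and -0.26 in D2 Resilient. None of the 4 passed (edgeR adjusted p 1, 1, 0.175 and 1.00), and pairs of these values share a Control group. Without D2 Susceptible replicates 1 and 2, the D2 Susceptible value was -0.61 by edgeR (adjusted p 0.254) and -0.60 by DESeq2, which called it (adjusted p 0.0320). Between the classes Fosl2 was higher in D1 Susceptible than in D2 Susceptible by 0.37 (SE 0.132, edgeR adjusted p 0.0396), and by 0.59 without D2 Susceptible replicates 1 and 2 (edgeR adjusted p 0.0035). That call was lost when D1 Susceptible replicate 1 or 5, or D2 Susceptible replicate 3, 4 or 5, was left out (log2 differences of 0.30, 0.36, 0.34, 0.35 and 0.35, edgeR adjusted p 0.114, 0.0669, 0.0611, 0.0663 and 0.0604). It was also lost for Fosl2 with DESeq2 size factors (0.35, adjusted p 0.0540), in the DESeq2 Wald test (0.35, adjusted p 0.0506) and with only the groups compared (0.38, adjusted p 0.136). In Control the D1 and D2 libraries did not overlap, yet the log2 difference of 0.24 did not pass (edgeR adjusted p 0.339).

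Fosb, counted over all of its forms, showed no called difference. Its mean per kb was above 50.5% of tested genes. Group means were 16.8 ± 2.58, 13.7 ± 2.96 and 14.6 ± 3.07 CPM (SD, n = 5) in D1 Control, Resilient and Susceptible, and 13.2 ± 4.29, 12.2 ± 2.22 and 12.6 ± 4.88 CPM in D2 in the same order. Libraries ranged from 6.27 to 20.6 CPM, with the lowest in D2 Susceptible replicate 1 and the highest in D1 Control replicate 5. The stress log2 changes lay between -0.30 and 0.09. Their 95% intervals reached down to -0.76, in D1 Resilient against Control, and up to 0.55, in D1 Susceptible against Resilient.

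Junb encodes a JUN protein that is itself an immediate early product and can restrain JUN. D1 Control libraries stood at 79.6, 111, 65.5, 83.3 and 94.7 CPM, D1 Resilient at 56.5 to 79.4 (median 68.0) and D1 Susceptible at 70.9, 64.6, 62.4, 100.1 and 60.2. In D2 the Control libraries were 66.8 to 109 CPM (median 93.4), the Resilient libraries 69.7 to 97.3 (median 86.2) and the Susceptible libraries 39.0, 38.1, 100.4, 71.7 and 60.1. The 2 lowest of all 30 values were D2 Susceptible replicates 1 and 2, the libraries with the fewest genes detected and the high epidermal sums, whose part in the Junb value was not tested.

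The log2 change of Junb was -0.51 in D2 Susceptible against Control (SE 0.203, edgeR adjusted p 0.226) and -0.43 against Resilient (SE 0.203, edgeR adjusted p 0.241). Without D2 Susceptible replicate 3, the highest of its group, both passed, at -0.76 (edgeR adjusted p 0.0369) and -0.68 (edgeR adjusted p 0.0244). Without replicates 1 and 2 they were -0.19 and -0.11, each with an edgeR adjusted p of 1. In D1 it was -0.28 in Susceptible and -0.33 in Resilient against Control, each with an adjusted p of 1. Between the classes it was -0.02 in Control, -0.27 in Resilient and 0.21 in Susceptible, none called. Prdx2, which lies on the opposite strand and shares 173 exon bases with Junb, had 2785 to 20359 counts per library against 699 to 6532 for Junb. As the library kit does not mark strand, reads in those bases cannot be assigned to either gene. The strand setting of the counting is also not given, so Junb counts carry that uncertainty.

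Jund encodes the JUN protein that is usually present at a steady level and opposes proliferation, and its counts were set by single libraries. D1 Control stood at 3.27, 3.34, 2.34, 3.09 and 3.40 CPM, D1 Resilient at 3.34, 152, 2.48, 12.7 and 3.53, and D1 Susceptible at 5.17, 3.25, 3.29, 3.96 and 3.65. In D2, Control stood at 3.71, 4.04, 3.60, 5.54 and 4.19, Resilient at 3.16, 2.70, 3.44, 3.53 and 2.69, and Susceptible at 135, 8.22, 3.68, 3.43 and 2.71. Thus 26 of the 30 libraries lay between 2.34 and 5.54 CPM, and 2 lay above 100 CPM.

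The differences called for Jund between the classes, 3.49 in Resilient (SE 1.07, edgeR adjusted p 0.0485) and -3.01 in Susceptible (SE 1.06, edgeR adjusted p 0.0407), rested on those 2 libraries. Without D1 Resilient replicate 2 the first was 0.85 (edgeR adjusted p 0.841), and without D2 Susceptible replicate 1 the second was -0.23 (edgeR adjusted p 0.881). The Resilient call was also lost without D1 Resilient replicate 4 (3.72, edgeR adjusted p 0.0510) and without any 1 of the 5 D2 Resilient libraries (3.46 to 3.56, edgeR adjusted p 0.0880 to 0.115). The Susceptible call was also lost without any 1 of the 5 D1 Susceptible libraries (-3.10 to -2.93, edgeR adjusted p 0.0605 to 0.0824). The D1 change minus the D2 change from Resilient to Susceptible was -6.49 (95% interval -9.59 to -3.40, unadjusted p 0.000225, edgeR adjusted p 0.210), and DESeq2 called it (-6.50, adjusted p 0.000503). It was -3.83 without the first library and -3.74 without the second (edgeR adjusted p 0.278 and 0.387). Without D2 Susceptible replicate 3 it was -6.78, and edgeR called it (adjusted p 0.0384). Without D2 Susceptible replicates 1 and 2 together DESeq2 gave -3.23 (adjusted p 0.647), so the DESeq2 call was lost. Over the 15 D2 libraries Jund and the endothelial sum had Pearson r 0.359 (permutation p 0.00096, Benjamini-Hochberg adjusted 0.0115) and Spearman rho 0.725 (permutation p 0.00228, adjusted 0.0274), with r 0.578 without the 2 libraries farthest from the median of that sum. Over the D1 libraries they had r 0.212 and rho 0.454 (permutation p 0.0241 and 0.0563, adjusted 0.0964 and 0.169), and r 0.249 without the 2 farthest. These exclusions went by the endothelial sum and not by Jund. D2 Susceptible replicate 1, at 135 CPM of Jund, also had the highest endothelial sum of the 30 libraries (334 CPM). With group means removed it was not among the 2 farthest, so it was kept. The relation without the high Jund libraries was not tested. Gm11175, annotated antisense to Jund over 877 of its 1668 bases, had 149 counts in D1 Resilient replicate 2 beside 7884 for Jund, and 0 counts in D2 Susceptible replicate 1 beside 6269 for Jund. As for Junb, the library kit does not mark strand and the strand setting of the counting is not given. Jund counts carry that uncertainty over the 877 shared bases.

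For no member did the stress change differ between the classes at an adjusted p of 0.05. By edgeR 0 of 6 were called for Susceptible against Control, Resilient against Control and Susceptible against Resilient, and the share of all genes called was 0%, 0% and 0%. At an unadjusted p under 0.05 there were 0, 2 and 2 members, Fos and Jund both times, while 7.79%, 4.99% and 12.4% of all genes reached it. DESeq2 called 0, 0 and 1 member (Jund), where it called 14, 19 and 72 of all genes. Voom called 0, 0 and 0 members, where it called 0, 169 and 0 of all genes.

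**Figure D4:**
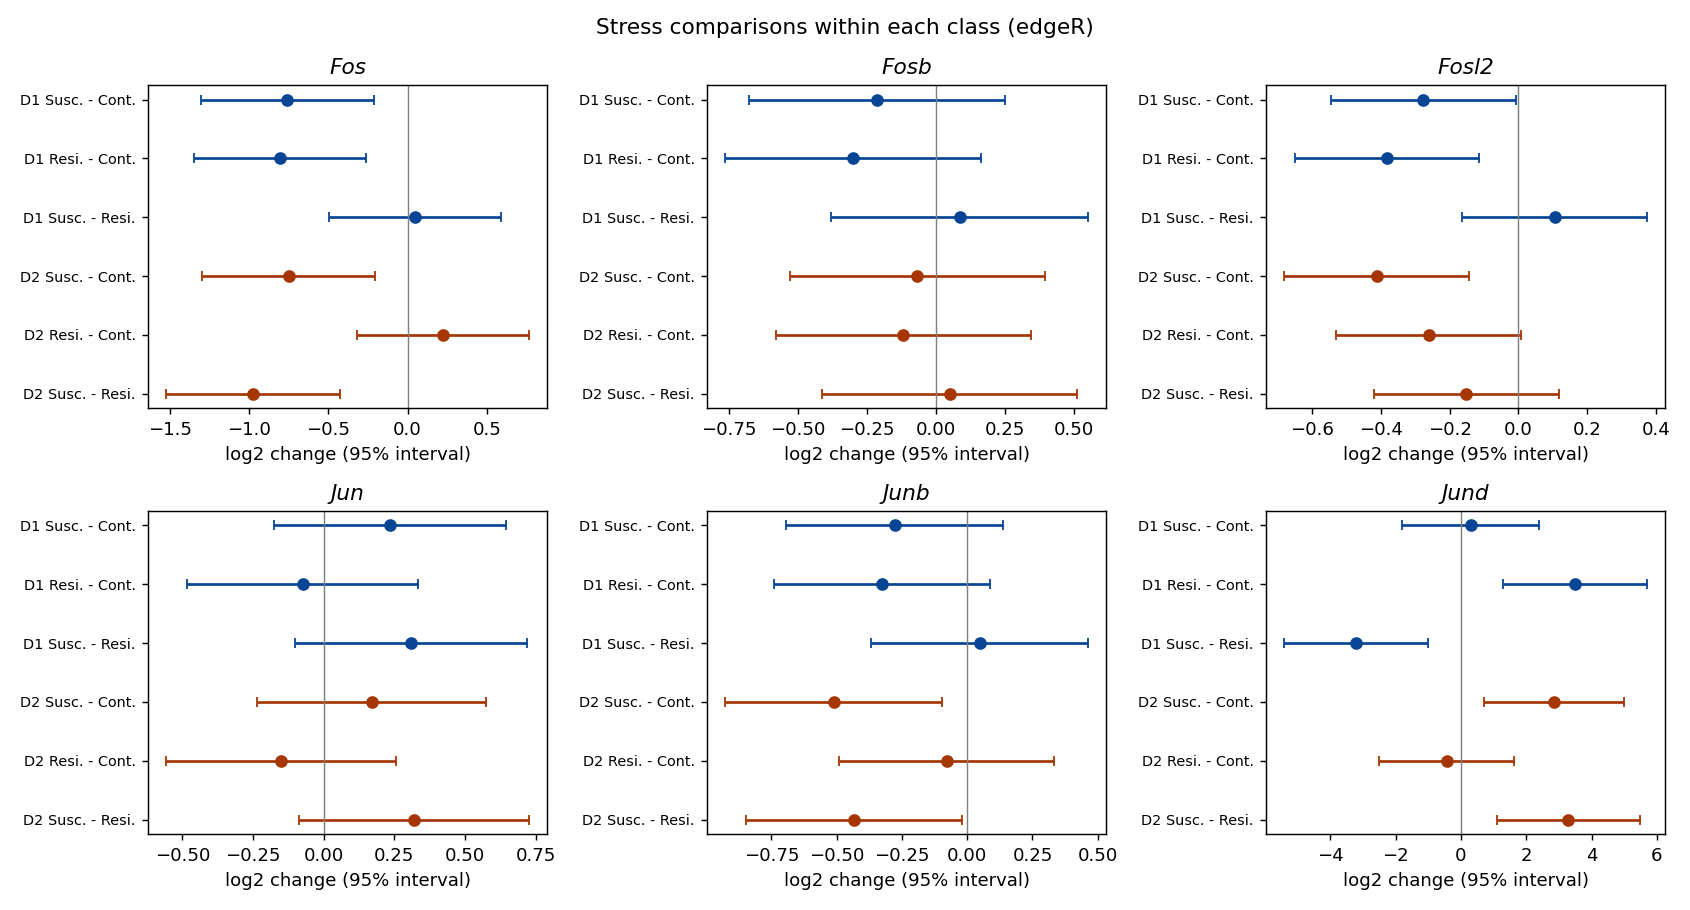
Log2 change of each member in the 6 stress comparisons (points, edgeR) with 95% intervals, D1 in blue and D2 in brown, 5 libraries per group; the horizontal scale differs between panels. Fos lies between -0.97 and -0.75 in 4 comparisons and at 0.05 and 0.23 in the other 2, and Jund has the widest intervals.

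Members were also compared with each other across the 30 libraries, after subtraction of group means, in 15 pairs. Fosl2 and Jund had Pearson r 0.680 (permutation p 0.00105, Benjamini-Hochberg adjusted 0.0157) and Spearman rho 0.580 (permutation p 0.00519, adjusted 0.0389), with r 0.568 without the 2 libraries farthest from the median of Fosl2, 0.721 within D1 and 0.631 within D2. Fosl2 was highest of its group in both libraries with over 100 CPM of Jund, at 62.3 CPM in D1 Resilient replicate 2, and, among D2 Susceptible libraries, at 50.1 CPM in replicate 1. Fos and Junb had rho 0.569 (permutation p 0.00281, adjusted 0.0389) and r 0.453 (permutation p 0.00835, adjusted 0.0626), with r 0.473 without the 2 farthest in Fos, 0.599 within D1 and 0.376 within D2. No other pair passed in either measure.

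The genes most like each member over the 30 libraries, by Pearson r of group-centred log2 CPM, are given as a description, and all 30 points share the effects of depth and composition of their library. For Fos they were Dusp5, a phosphatase of ERK (r 0.765), Hectd2os (0.760) and AC134576.1 (0.731), the last at a mean of 0.123 CPM. For Fosb they were Slc9a5, a sodium-proton exchanger (0.865), Prlhr (0.843) and Slc25a25, a mitochondrial carrier (0.807). For Fosl2 they were Irs2, an adaptor of insulin signalling (0.724), Dcaf12 (0.700) and Bcl6, a transcriptional repressor (0.690), for Junb Tsen34 (0.886), Nab2, a corepressor of EGR factors (0.875), and Map7d1 (0.874), and for Jund Slc20a1, a phosphate transporter (0.734), Smad5 (0.715) and Ppip5k1 (0.697).

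Around the members, lists of 60 genes of the pathway were read in the same fits, 57 of which passed the filter on low counts (Fosl1, Batf and Egr2 did not). In the 6 stress comparisons and the 3 comparisons of changes edgeR called 0 of the 57. At an unadjusted p under 0.05 they numbered 5, 7 and 0 in D1 (Susceptible and Resilient against Control, Susceptible against Resilient) and 15, 2 and 15 in D2, and 7, 7 and 8 for the comparisons of changes. As shares of the 57 these are 8.77%, 12.3% and 0% in D1, where 2.4%, 2.6% and 3.49% of all genes reached that p, and 26.3%, 3.51% and 26.3% in D2, where 15.7%, 4.2% and 19.1% did. For the comparisons of changes they are 12.3%, 12.3% and 14.0%, beside 7.79%, 4.99% and 12.4%. In D2 Susceptible the counts were 3 against Control and 4 against Resilient without replicates 1 and 2. DESeq2 called 1 (Camk4) in D2 Susceptible against Control, where it called 332 of all genes. In D2 Susceptible against Resilient it called 4 (Camk4, Crebbp, Elk4 and Homer1, all higher in Susceptible), with 1077 of all genes. Voom called 7 in D1 Resilient against Control (Arc, Btg2, Dusp6, Egr1, Egr3, Homer1 and Nr4a1), all lower in Resilient, with 173 of 19368 genes. It called 2 (Btg2 and Mapk3) in the D1 change minus the D2 change from Control to Resilient, with 169 of 19368. Without D2 Susceptible replicates 1 and 2, DESeq2 called 0 pathway genes in both of those D2 comparisons. The shares of all genes were then 0.068% and 0.103%.

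Of the 12 tested genes of the early list, transcription factors and effectors induced by activity together with Fos, 12 had a log2 change below 0 in D1 Susceptible and 12 in D1 Resilient against Control, with medians of -0.31 and -0.36, while the median of all genes was -0.01 in both. Those comparisons share the D1 Control libraries. In D2 10 were below 0 in Susceptible (median -0.41, all genes -0.03) and 8 in Resilient (median -0.09, all genes -0.01). None of these genes was called by edgeR, and 3, 4, 5 and 1 of them had an unadjusted p under 0.05. The D2 Susceptible median was -0.31 without replicates 1 and 2, with 11 of 12 below 0 and 1 at an unadjusted p under 0.05.

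Between the classes, edgeR called 7 of the 57 in Control and 6 in Resilient, all higher in D1, and 13 in Susceptible, of which 9 were higher in D1 and 4 in D2. Without D2 Susceptible replicates 1 and 2 there were 7 in Susceptible, all higher in D1, so each of the 4 calls toward D2 was lost. Among 12 early genes the calls were 2, 1 and 3. Nr4a2, an orphan nuclear receptor induced by activity, was 67.3 ± 25.2 CPM (SD, n = 5) in D1 Control, against 17.9 ± 10.6 CPM for D2 Control (1.91 higher in log2, SE 0.331, adjusted p by edgeR 0.000334), and it was called in all 3 conditions. Nr4a3 was called in Control (0.70) and Susceptible (0.99), both higher in D1, and Homer1, a scaffold of synapses, in Susceptible (-0.58). Without the same 2 libraries Homer1 was 0.01 (edgeR adjusted p 0.978), and Nr4a2 and Nr4a3 were 2.11 and 0.97 and still called.

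Among 9 tested partners that can dimerise with the families, Maf, a basic leucine zipper factor, was called in all 3 conditions, higher in D1 by 1.37, 1.59 and 0.73 on the log2 scale. Of 18 upstream kinases and factors, 3, 2 and 5 were called. The JNK kinases that phosphorylate JUN were higher in D1, the class with less Jun: Mapk8 (JNK1) by 0.41 in Control, 0.29 in Resilient and 0.31 in Susceptible, Mapk9 (JNK2) by 0.28 in Control and 0.40 in Susceptible, and Mapk10 (JNK3) by 0.33 in Control. Map2k4, which activates JNK, was higher in D1 Resilient by 0.33, and Elk4, a partner of serum response factor, was higher in D2 Susceptible (-0.88), but -0.30 without D2 Susceptible replicates 1 and 2 (edgeR adjusted p 0.336). Mapk8 and Mapk9 stayed called without them (0.37 and 0.31), and Maf was then 1.29.

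Feedback regulators, 7 genes such as the dual-specificity phosphatases, gave 0, 0 and 1 call (Sik1, a kinase that restrains CREB coactivators, 0.50 in Susceptible). The 5 turnover genes gave 0 in each (unadjusted p under 0.05 for 0, 0 and 2). Among 6 genes described as targets of deltaFosB, 1, 1 and 3 were called. Pdyn, the prodynorphin gene and also one of the D1 markers, was higher in D1 by 2.33, 2.23 and 4.07, and in Susceptible Camk2a was higher in D1 (0.33) and Gria2 higher in D2 (-0.56). Without D2 Susceptible replicates 1 and 2, Pdyn was 4.03 and called, whereas Camk2a (0.22), Gria2 (-0.28) and Sik1 (0.36) were not (edgeR adjusted p 0.108, 0.434 and 0.162). These list genes and members were read from 1 fit over all 19368 genes, and the shares of the 57 called in Control, Resilient and Susceptible, 12.3%, 10.5% and 22.8%, stand beside the 8.3%, 6.65% and 23.9% of all genes given above.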

How the data were processed

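RNA bound to tagged ribosomes was sequenced in 30 libraries. The deposited values are whole-number gene counts made by the authors. HISAT2, HTSeq and the GRCm38/mm10 genome are named per the submitters' processing notes, without versions. RNA was purified from polyribosomes with an anti-HA antibody and libraries were made from 10 ng with the SMART-Seq v4 kit, per the labels' protocols. That kit does not mark strand, and the annotation release and the strand setting of the counting are not given in the sources used. Summary lines that name no gene, 10.1% to 53.3% of the reads in a library, were left out. Gene counts of 28996168 to 65882152 per library remained, and intervals cover the spread between libraries.

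Symbols were matched for 55154 of 55335 genes (GENCODE M21), which also gave positions and exon lengths. Genes passed edgeR's filterByExpr by group (19368 genes). The main test was edgeR's quasi-likelihood F test (edgeR 4.0.16 in R 4.3.3, robust) on the counts, scaled by TMM, with 1 model of all 6 groups and Benjamini-Hochberg adjustment over all genes at 0.05. The biological coefficient of variation was 41.4%. Alternatives were DESeq2 size factors, no filter on low counts, the replicate number as a block, only the groups compared, the DESeq2 Wald test (1.42.0), limma voom with sample quality weights (3.58.1) and leaving out each library. Correlations were taken on log2 CPM (prior count 2) with 100000 permutations within groups, two-sided (scipy 1.17.1). The edgeR test was tried on simulated counts, read for D1 Resilient against D1 Control only. Promoters are from RefSeq (GRCm38.p6), matched by symbol for 6 of 6 members.

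The members, lists and markers were chosen with earlier results of these data known. The genes named are the 6 members, up to 3 called genes with the smallest adjusted p from each pathway list and comparison, the 3 genes most like each member (leaving out Gm and Rik names), and class markers. Genes called by another tool, Pecam1 and Tek among the endothelial markers, and Plaa were named after their values were seen. The D2 marker Gpr52 and the male and human data were not analysed here. The result of 1 gene of the partner list is not reported here.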

Additional observations from a re-analysis of the deposited data

Results flagged for a closer look

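In each of the 36 groups of 5 libraries (6 members in 6 groups) the highest and the lowest library were compared with the rest, and a library was singled out where its gap to the nearest other exceeded 0.710 of the group's whole range. Chance alone singles out about 1 in 20 groups. There were 3 such values. Junb stood at 100.1 CPM in D1 Susceptible replicate 4, where the other 4 libraries lay between 60.2 and 70.9 CPM. The same library had the highest Jun of its class, 97.3 CPM. Jund stood at 152 CPM in D1 Resilient replicate 2 and at 135 CPM in D2 Susceptible replicate 1, where the next highest libraries of the groups had 12.7 and 8.22 CPM. The cause of these values was not tested.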

How the results depend on the processing

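Jun kept its direction and its call between the classes in every alternative run. The number of members called in D1 Resilient against D2 Resilient fell from 2 to 1 with DESeq2 size factors, without a filter, with only the groups compared and in voom, and in D1 Susceptible against D2 Susceptible it fell from 4 to 2 with only the groups compared, in voom, without D2 Susceptible replicates 1 and 2, and with D1 Susceptible replicate 1 left out as well. It rose from 0 to 2 in D1 Resilient against Control in voom, from 0 to 2 in D2 Susceptible against Resilient in DESeq2, and from 0 to 1 in the difference of changes from Resilient to Susceptible in DESeq2. The exclusions of several libraries together were chosen after seeing the data. The cause of these differences was not tested.

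Values that changed sign lay near 0, apart from Jund. In D1 Susceptible against Resilient, Fos was -0.053, Fosb -0.029 and Junb -0.028 in voom, and without the 3 libraries Fos was -0.0091 and Fosb -0.036. In D2 Susceptible against Resilient, Fosb was -0.028 in voom. In D2 Susceptible against Control, Jund was -0.27 in voom and -0.37 under both exclusions. Between the classes in Susceptible, Junb was -0.064 in voom and -0.088 and -0.10 under the exclusions, and Jund 0.073 in voom and 0.23 and 0.12 under the exclusions.

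Leaving out 1 library at a time gave 0 to 1 members in D2 Susceptible against Control, 0 to 3 in D2 Susceptible against Resilient, 1 to 2 between the classes in Control, 1 to 2 in Resilient, 2 to 4 in Susceptible and 0 to 1 for the difference of changes from Resilient to Susceptible. The 3 called without D2 Susceptible replicate 3 were Fos, Junb and Jund. That fit kept D2 Susceptible replicates 1 and 2, and its share of all genes called is not reported here. With replicates 1 and 2 left out and replicate 3 kept, edgeR called 0 members in D2 Susceptible against Resilient. Signs changed within these ranges: in D1 Susceptible against Resilient, Fos -0.078 to 0.14, Fosb -0.037 to 0.18 and Junb -0.11 to 0.11. In D2 they were Fosb -0.26 to 0.10 (Susceptible against Control), Fosb -0.25 to 0.027, Jun -0.30 to 0.031 and Junb -0.17 to 0.0061 (Resilient against Control), and Fosb -0.15 to 0.22 (Susceptible against Resilient). Between the classes they were Junb -0.12 to 0.079 in Control and Fos -0.29 to 0.067 in Resilient.

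Replicate numbers did not pair the libraries: of 75 pairs with the same number, 0 had correlated deviations above 0.1 (mean r -0.004). For 2 of 30 libraries, the mean correlation with other groups was highest for libraries of their own number. With the replicate block the count in D1 Resilient against D2 Resilient was 1, as Jund was not called (2.70, adjusted p 0.233). Jund was also not called under the block in Susceptible (-2.07, adjusted p 0.198).

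Over all genes, calls in Control, Resilient and Susceptible between the classes were 1608, 1288 and 4621 in edgeR, 2099, 1605 and 5457 in DESeq2, 5491, 3416 and 3295 in voom and 2696, 2184 and 915 with only the groups compared. Of the 57 pathway genes, DESeq2 called 6, 6 and 16 and voom 20, 11 and 9. In stress comparisons DESeq2 called 5, 5 and 15 genes in D1 and 332, 17 and 1077 in D2, and voom 0, 173 and 15 in D1 and 0, 0 and 1 in D2. Without D2 Susceptible replicates 1 and 2, edgeR called 7 pathway genes in Susceptible in place of 13, and DESeq2 called 8. The shares of all genes called were then 10.4% in edgeR and 12.2% in DESeq2. The lowest count of a member in a library was 51 reads.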
